A study of Drosophila melanogaster with 2 samples.

Results

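Insulator proteins, promoter-binding zinc finger proteins and BTB-domain factors act at domain borders, promoters and enhancers of the Drosophila genome, and the genes that encode 35 of them were examined as targets of another zinc finger protein, CG18011. They comprised 12 genes for insulator proteins, 15 for zinc finger regulators and 8 for BTB factors, of 13945 protein-coding genes on the 6 chromosome arms used. The members were taken by symbol from the Ensembl annotation of dm6, all 35 symbols matched, and the division into classes follows their best known role. The classes share domains: Trl, mod(mdg4) and Cp190 also carry a BTB domain, and most DNA-binding insulator proteins have zinc fingers. The data are chromatin immunoprecipitations with sequencing (ChIP-seq) from 1 transgenic line of D. melanogaster that stably carries CG18011 with GFP at its C terminus, precipitated with an antibody against GFP. The material was whole embryos of 0 to 24 h, males and females pooled, in 2 biological replicates that form 1 group with no second condition. Every tissue and stage of the embryo was thus mixed, and a signal cannot be assigned to any of them. No control library was analysed here.

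Insulator proteins bind at the borders of chromatin domains and can keep an enhancer from acting on a promoter beyond the border. CTCF, su(Hw), BEAF-32, pita, ZIPIC, Ibf1, Ibf2 and dwg bind DNA directly, while Cp190, mod(mdg4) and Chro are recruited to many of the same sites. Promoter zinc finger proteins such as M1BP and Dref recognise short elements just upstream of broadly expressed genes. BTB factors such as lola, ttk and br dimerise through their BTB domain, are made as many isoforms from long genes, and direct cell fate in nerve, muscle, ovary and imaginal discs.

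A gene was called bound when the summit of a peak that passed the authors' threshold on the irreproducible discovery rate (IDR, a filter on agreement between replicates) lay within 500 bp of one of its annotated start sites. That list held 3290 peaks. Each peak carries a signal, in the unit its caller gave it, that ran from 179 to 70679 with a median of 280 over the list. The pooled list, made before that threshold, held 29999 peaks on the arms with signals down to 38.5 and is used for genes without an IDR summit. To compare the libraries, each signal was set against the median of the same library over all IDR peaks, which was 64.6 in replicate 1 and 223 in replicate 2, and the quotient is called the relative signal. A value of 1 is therefore a typical IDR peak. Read depth was not given in the sources used here. The counting error of a signal therefore cannot be computed, and the SD between the 2 libraries is the only error given for a single peak. Binding classes were counted over genes, which are not replicates, and no test was made over them.

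The sequences under 6 member peaks are shown because the results below turn on them: leading start-site peaks of the insulator and zinc finger genes, the Trl intron, a BTB intron, and a peak with a recurrent word. They were read from the RefSeq genome of build dm6 around the IDR summit, in the direction of transcription of the gene named, and capitals mark the words named under the block (lower case elsewhere). Chro is shown at chr3L:22878887-22878915 (minus strand, 5′ UTR, trimmed to the site), the Trl intron at chr3L:14759479-14759579 (minus strand), Cp190 at chr3R:15275308-15275408 (minus strand), Dref at chr2L:9967247-9967312 (minus strand), Phs at chr3L:15619740-15619840 (plus strand) and the br intron at chrX:1618840-1618940 (plus strand).
Chro start site: actgcagttagtttAAAGCTatcgacagg
Trl intron: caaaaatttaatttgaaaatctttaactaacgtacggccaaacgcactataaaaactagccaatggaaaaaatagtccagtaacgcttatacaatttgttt
Cp190 start site: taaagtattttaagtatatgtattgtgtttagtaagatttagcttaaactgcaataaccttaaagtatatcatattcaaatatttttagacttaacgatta
Dref start site: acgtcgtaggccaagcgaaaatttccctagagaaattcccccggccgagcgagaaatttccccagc
Phs start site: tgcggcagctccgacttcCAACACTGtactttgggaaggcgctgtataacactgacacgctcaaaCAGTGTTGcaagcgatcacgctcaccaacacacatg
br intron: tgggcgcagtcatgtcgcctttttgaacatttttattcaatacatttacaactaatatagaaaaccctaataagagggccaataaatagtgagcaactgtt
The capitals in Chro mark AAAGCT, which lay 2 bp from the summit. In Phs they mark CAACACTG, present once on each strand (CAGTGTTG is its reverse complement). The other 4 windows hold none of the words searched.

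Of the member genes, 12 of 35 had an IDR summit at a start site, a share of 34.3% (exact binomial 95% interval 19.1 to 52.2, which covers counting error only), against 17.9% of all protein-coding genes. The bound members were Cp190, pita, Chro and Trl among the insulator proteins (4 of 12), M1BP, Dref, Kr-h1, D19B, Phs, nom and row among the zinc finger regulators (7 of 15), and lola among the BTB factors (1 of 8). The DNA-binding insulator proteins CTCF, su(Hw) and BEAF-32 were not among them. A pooled peak of any strength stood at 29 of 35 members (82.9%), against 53.6% of all protein-coding genes. Among genes with such a peak, 12 of 29 members were bound (41.4%, interval 23.5 to 61.1), against 33.4% of all such genes, a value that lies inside the members' interval. By class the bound shares were 33.3% for insulator proteins (interval 9.92 to 65.1), 46.7% for zinc finger regulators (21.3 to 73.4) and 12.5% for BTB factors (0.316 to 52.7). These intervals overlap, and so the classes were not told apart at start sites with so few genes. The members and classes were chosen with earlier results of these data known, so all these shares only describe a chosen list.

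**Figure D1:**
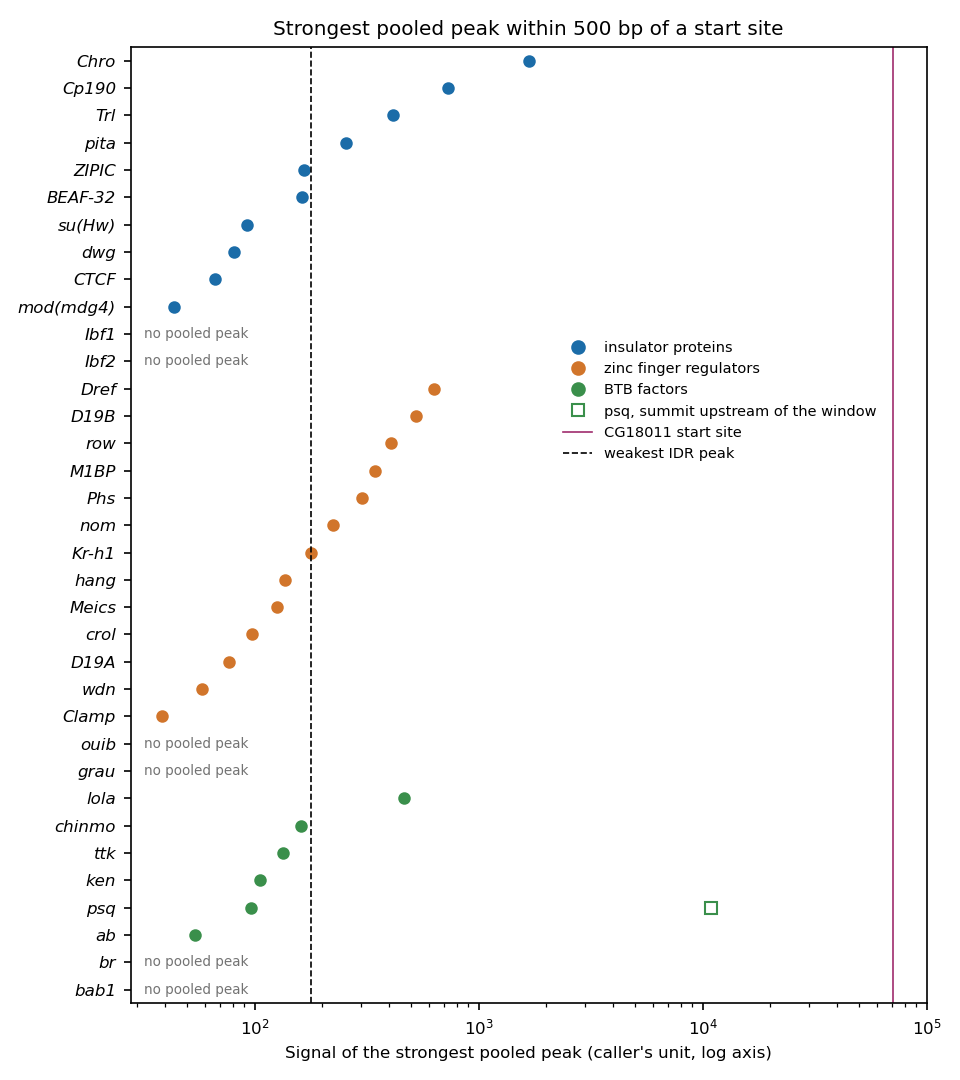
Strongest pooled peak within 500 bp of a start site of each of the 35 genes, by class, on a log axis in the caller's unit; the dashed line is the weakest IDR peak and the solid line the peak at the start site of CG18011. The bound genes lie between 179 and 1678, far left of CG18011 at 70679, and the open square, the psq summit upstream of the window, is at 10934.

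The start site of CG18011 itself served as the yardstick. Its peak was the strongest of the list, 50 bp inside the gene, with a pooled signal of 70679 and a relative signal of 236 ± 28.2 (SD, n = 2; 216 in replicate 1, 256 in replicate 2). The relative signal of the highest start-site peak of a member, at Chro, was 2.61% of that of CG18011. The strongest peaks of the 12 bound members had a median relative signal of 1.39 (range 0.564 to 6.16), against 1.04 over the 1882 IDR peaks at a start site of a protein-coding gene. Those 1882 were not limited to the strongest peak of each gene, so the medians are not like for like. The range of the members was led by 2 insulator genes, Chro and Cp190.

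Among the insulator genes, Chro and Cp190 carried the strongest start-site peaks. Chro, which encodes a chromodomain protein of interbands and of the mitotic spindle, had its summit 83 bp inside the gene in the 5′ UTR (chr3L:22878713-22879103). Its signal was 435 in replicate 1 and 1246 in replicate 2, relative signals of 6.74 and 5.59 (mean 6.16 ± 0.812, SD, n = 2), and it ranked 179 of 3290. Cp190, the cofactor shared by most fly insulator proteins, had its main summit 117 bp upstream of its start (chr3R:15275178-15275574). Its signal was 206 in replicate 1 and 531 in replicate 2, relative signals of 3.19 and 2.38 (mean 2.79 ± 0.570). A second summit 317 bp upstream had a pooled signal of 226, but a relative signal of only 0.186 in replicate 1, while replicate 2 gives 1 value of 531 for both summits. That second summit lay 36 bp from the start of CG4338, the divergent neighbour of Cp190.

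Trl, which encodes the GAGA factor, and pita, an insulator zinc finger protein, were bound more weakly at their start sites. The Trl summit lay 141 bp inside a start site, in a 5′ UTR (chr3L:14757110-14757334), with 105 in replicate 1 and 318 in replicate 2 (relative signal 1.53 ± 0.145, SD, n = 2). A stronger peak of Trl lay outside the window. In an intron 1520 bp from the nearest Trl start (chr3L:14759270-14759726), the signal was 327 in replicate 1 and 1115 in replicate 2, relative signals of 5.07 and 5.00 (mean 5.04 ± 0.0467), which ranked 194. The start-site and intron peaks of Trl were thus separated by more than the spread of either. Further Trl introns held summits with relative signals of 1.08 ± 0.0879 and 0.767 ± 0.0816. For pita, the stronger summit (chr2R:23551136-23551551) had 39.1 in replicate 1 and 223 in replicate 2 (relative signal 0.803 ± 0.279). It lay 31 bp from the start of Dcp-1, a caspase gene, so that the gene it serves cannot be told from position. The other pita summit was nearest to pita itself, at 0.614 ± 0.243.

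The remaining 8 insulator genes had no IDR summit at a start site, although 6 of them had a pooled peak there. ZIPIC and BEAF-32 came closest: their strongest pooled peaks had signals of 166 and 163, which are 92.8% and 91.0% of the weakest IDR peak. Both lay just upstream of the start, at -61 bp for ZIPIC and -57 bp for BEAF-32. CTCF, the insulator protein conserved with vertebrates, had 10.9 in replicate 1 and 57.4 in replicate 2 (pooled 66.6), close to the median of all pooled peaks, 65.2. The other pooled signals were 92.9 for su(Hw), 81.2 for dwg and 43.6 for mod(mdg4). Ibf1 and Ibf2, which lie head to head and encode partners of Cp190, had no pooled peak at their starts, and replicate 2 alone listed one at Ibf2, with a signal of 36.8. The nearest IDR summit to a start of CTCF was 24956 bp away, that of su(Hw) 19.3 kb and that of BEAF-32 14.2 kb.

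The zinc finger regulators had the most bound genes but no peak as strong as Chro. Dref, which binds the DNA replication-related element, led the class with a summit 68 bp upstream (chr2L:9967140-9967427). It had 132 in replicate 1 and 515 in replicate 2, relative signals of 2.04 and 2.31 (mean 2.17 ± 0.190, SD, n = 2). The divergent ribosomal protein gene RpL13 began 16 bp from the same summit. D19B, 1 of a pair of neighbouring zinc finger genes, followed at 85.5 in replicate 1 and 443 in replicate 2 (relative signal 1.66 ± 0.469), and its neighbour D19A had only a pooled peak of 76.7. The summit of D19B (chr3L:6184993-6185280) lay 208 bp upstream of its start and 61 bp from that of CG43293. M1BP, which binds the Motif 1 promoter element, had 99.0 in replicate 1 and 248 in replicate 2 (relative signal 1.32 ± 0.296). Its summit (chr3R:8731947-8732123) lay 345 bp upstream of M1BP but 48 bp from the divergent gene CG8202.

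The genes row, nom, Phs and Kr-h1 completed the bound zinc finger genes. The first of these, whose name stands for relative of woc, had 55.3 in replicate 1 and 342 in replicate 2 at a summit 62 bp upstream (chr2R:15213595-15213795, relative signal 1.20 ± 0.480), and a second summit at 0.709 ± 0.208 for which replicate 1 shares the same value. Phs had 63.9 in replicate 1 and 236 in replicate 2, relative signals of 0.989 and 1.06, the smallest SD among the start-site summits (1.03 ± 0.0506, chr3L:15619710-15619871). For nom (chr3R:8722974-8723389), whose summit lay 8 bp inside the gene, the relative signal was 0.688 ± 0.279. Its neighbour ouib, which regulates an ecdysone biosynthesis gene, had no pooled peak at its start, and its nearest IDR summit was that of nom, 2.30 kb away. Kr-h1, a juvenile hormone response gene, was just inside the list: its signal of 179 ranked 3281 of 3290, with relative signals of 0.449 in replicate 1 and 0.679 in replicate 2 (mean 0.564 ± 0.162). The 8 unbound zinc finger genes included hang at 137, Meics at 126, crol at 97.1 and wdn at 58.4. Clamp, which binds GA repeats and recruits the dosage compensation complex, had a pooled signal of 38.5, near the bottom of the pooled list, though the relative signal of its strongest library peak was 0.387 in replicate 1 and 0.272 in replicate 2, above the 0.168 and 0.258 of CTCF. No pooled peak stood at the start of grau, an activator in oogenesis.

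**Figure D2:**
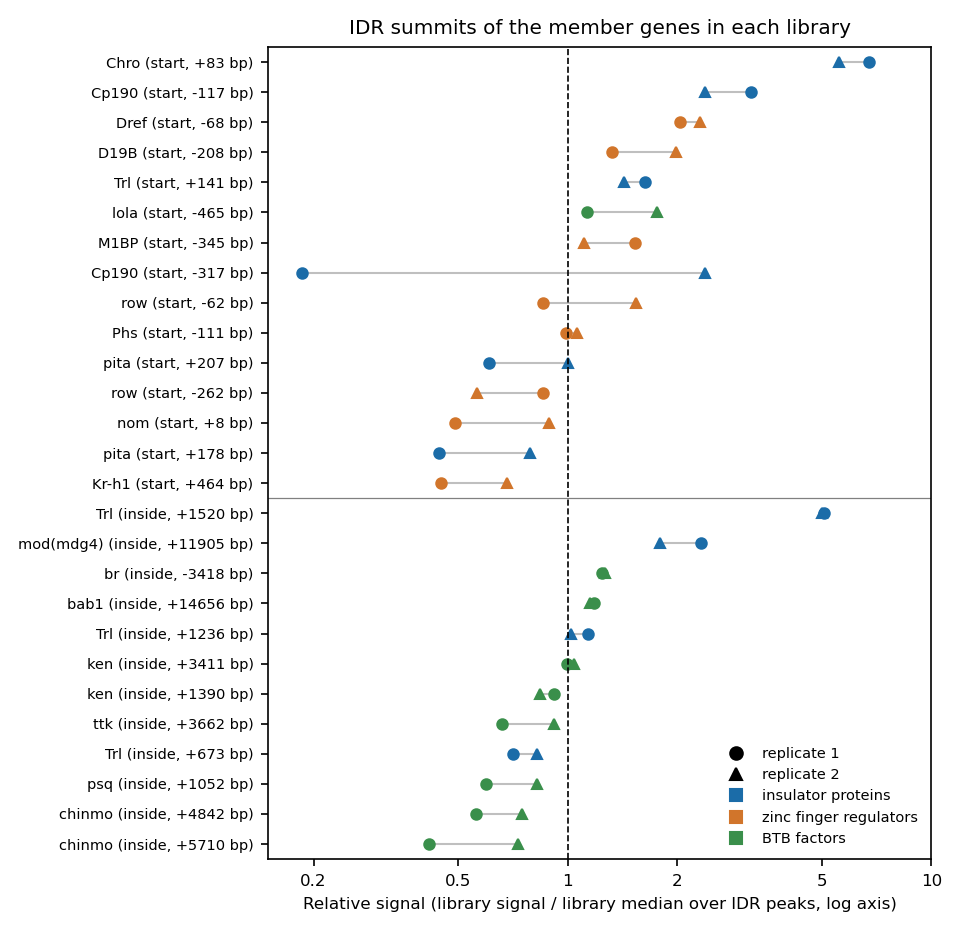
Relative signal of each IDR summit of the members in replicate 1 (circles) and replicate 2 (triangles), on a log axis, with summits at start sites above the line and those inside genes below; distances are to the nearest own start site, negative upstream. The pair of Chro values (6.74 and 5.59) and the Trl intron (5.07 and 5.00) lie clear of the rest, and the Cp190 summit at -317 bp has the widest gap, 0.186 in replicate 1 and 2.38 in replicate 2.

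A start-site summit does not always belong to the gene it is counted for. The 12 bound members had 15 IDR summits at their start sites, and for 10 of these the member's own start was the nearest of any protein-coding gene. The other 5 were nearest to CG4338, Dcp-1, CG8202, RpL13 and CG43293. When each summit was given to its nearest start only, M1BP, Dref and D19B were no longer bound, 4 of 15 zinc finger genes remained, and the total was 9 of 35, against 13.2% of all protein-coding genes under the same rule.

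In the BTB genes, summits lay in introns more often than at starts. An IDR summit lay inside 7 of 8 BTB genes (87.5%, exact binomial interval 47.3 to 99.7), all but ab, against 4 of 12 insulator genes (33.3%, 9.92 to 65.1) and 2 of 15 zinc finger genes (13.3%, 1.66 to 40.5). Of all 35 members 13 had one (37.1%), against 9.99% of all protein-coding genes. These counts include summits inside a gene that also lay within 500 bp of a start site, such as the only summit of lola. Beyond that window, an IDR summit lay inside 6 of 8 BTB genes, 2 of 12 insulator genes and 0 of 15 zinc finger genes, or 8 of 35 members. The share of all protein-coding genes with a summit inside but beyond that window was not computed, so these counts have no background. The BTB genes are long, with a median of 56.4 kb, against 2.17 kb for all protein-coding genes, and length was therefore set beside the count. Of protein-coding genes of at least 20 kb, 38.3% had an IDR summit inside, against 6 of 7 BTB genes of that length (85.7%, 42.1 to 99.6). Per length the BTB genes had 9 summits in 408 kb, or 0.221 per 10 kb. That was near the 0.205 per 10 kb of all protein-coding genes. Protein-coding genes of at least 20 kb, with a median length of 37.0 kb, had 0.145 per 10 kb. The BTB value includes ken, a gene of only 7.17 kb with 2 of the 9 summits, so that comparison is not like for like. The insulator genes had 1.12 summits per 10 kb, 8 in 71.1 kb, of which Trl holds 4.

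**Figure D3:**
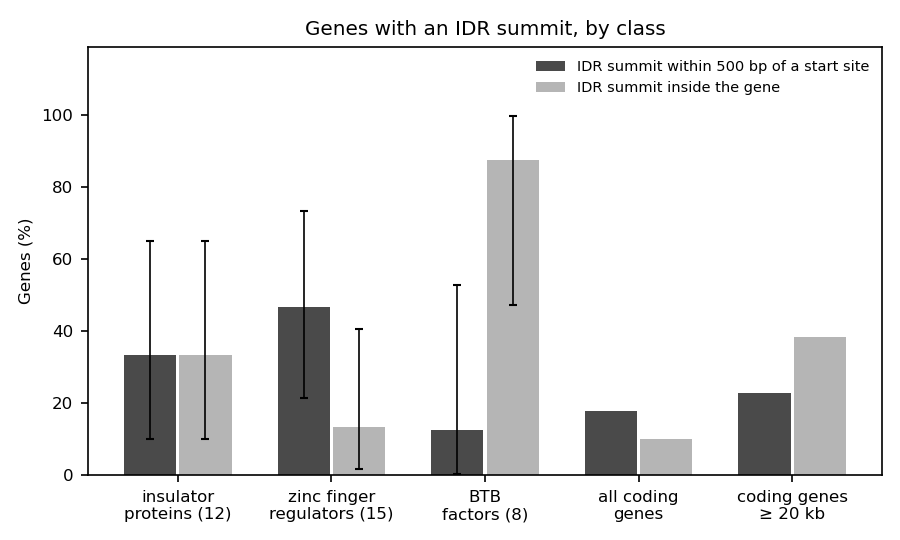
Percentage of genes with an IDR summit within 500 bp of a start site (dark bars) and inside the gene (light bars), for the 3 classes, for all protein-coding genes and for those of at least 20 kb; error bars on the classes are exact binomial 95% intervals. The BTB factors have the lowest dark bar, 12.5%, and the highest light bar, 87.5%, and the intervals of the classes are wide. A summit inside a gene and within 500 bp of its start site counts in both bars.

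The only BTB gene bound at a start site was lola, an axon guidance gene with many isoforms. Its summit (chr2R:10542047-10542280) lay 465 bp upstream of an internal start, within an intron of the longer transcripts. The signal was 73.2 in replicate 1 and 393 in replicate 2 (relative signal 1.45 ± 0.445, SD, n = 2). In the other BTB genes the intron peaks had relative signals from 0.572 to 1.26. For br, the ecdysone-induced gene of metamorphosis, the summit lay 43.8 kb into the gene (chrX:1618787-1618974), with 80.3 in replicate 1 and 283 in replicate 2 (relative signal 1.26 ± 0.0176). It was 735 bp from the start of Mur2B, a gene nested in br, and nearer to it than to any start of br. For bab1, which patterns leg and ovary, the summit lay 14.7 kb into the gene (chr3L:1086299-1086545), with 75.9 and 256 (relative signal 1.16 ± 0.0181). These 2 genes had no pooled peak at any start site.

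The other BTB introns were weaker. In ken, a transcriptional repressor named for its genital phenotype, the 2 summits had relative signals of 1.01 ± 0.0292 and 0.878 ± 0.0584. In ttk, a repressor of neural fate, the value was 0.786 ± 0.182. In chinmo, which sets temporal identity of neurons, the 2 summits had 0.655 ± 0.134 and 0.572 ± 0.221, and the chinmo start had a pooled peak of 162, or 90.4% of the weakest IDR peak. A stronger IDR summit lay 1736 bp upstream of chinmo, the nearest protein-coding gene, with 99.8 in replicate 1 and 195 in replicate 2 (relative signal 1.21 ± 0.475). A dendrite and muscle factor, ab, had no IDR summit inside and a pooled peak of only 54.5 at a start. Inside members and beyond the windows of their own start sites lay 12 IDR summits, all in introns of the member. Their median relative signal was 0.946 (range 0.572 to 5.04), against 0.997 over all IDR peaks.

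One insulator gene also had its peak only inside. In mod(mdg4), a BTB cofactor of su(Hw) that is made by trans-splicing, the summit lay 11.9 kb from the start (chr3R:21365266-21365603), with 150 in replicate 1 and 400 in replicate 2 (relative signal 2.06 ± 0.372). This is the part of the locus where the separately transcribed 3′ exons are annotated as genes of their own. The summit was nearest to the start of pre-mod(mdg4)-E, 8 bp away. It thus lay within 500 bp of that start, though far from the start of mod(mdg4) itself.

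**Figure D4:**
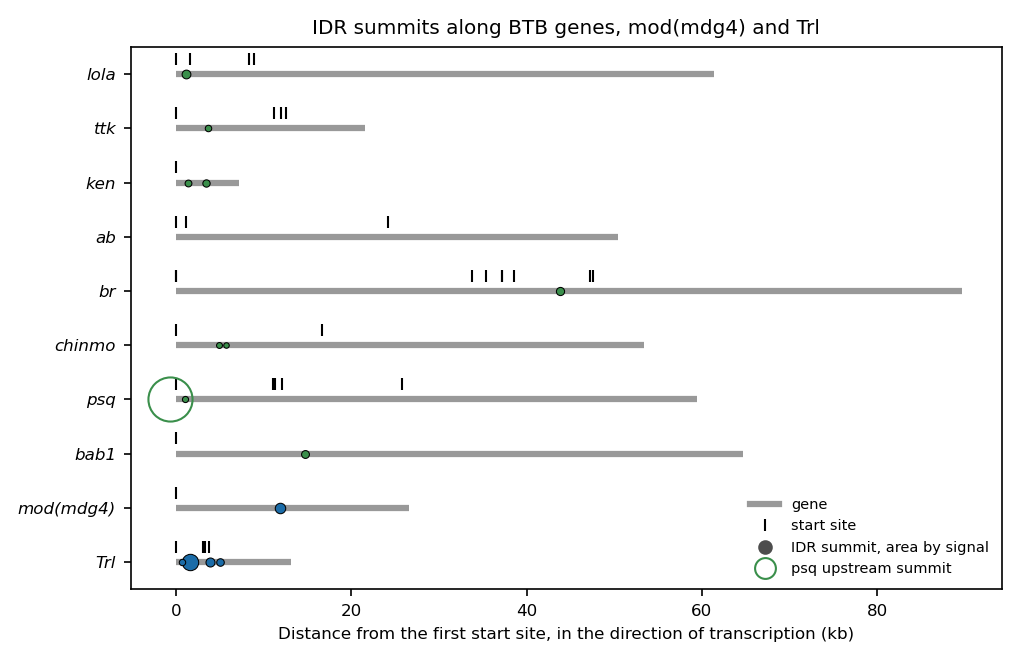
Positions of IDR summits along the 8 BTB genes, mod(mdg4) and Trl, in kb from the first start site in the direction of transcription; ticks are start sites and the area of a circle is proportional to the relative signal. Summits in BTB genes sit inside the grey gene bar away from most ticks, and the open circle marks the psq summit 677 bp upstream of the first start.

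The strongest peak beside any of the 35 genes was at psq and escaped the 500 bp window. The gene psq encodes pipsqueak, a BTB factor that binds GA repeats and acts with Polycomb and Trithorax group proteins. Its upstream peak (chr2R:10556630-10558211) was 1582 bp wide, covered the first start site, and had its summit 677 bp upstream of it. The signal was 2170 in replicate 1 and 8831 in replicate 2, relative signals of 33.6 and 39.6 (mean 36.6 ± 4.26, SD, n = 2), and the pooled signal of 10934 ranked 94 and was 15.5% of that of CG18011. Both libraries placed it among their strongest peaks, at rank 91 in replicate 1 and 95 in replicate 2. Replicate 1 also listed a summit with a signal of 1024 within the window, whereas in replicate 2 the strongest peak with a summit there had 77.9. By its own start psq was thus unbound under the rule, with a pooled peak of 96.7, and bound when the window was 1000 bp or when overlap of the peak interval with the window counted. The neighbouring gene lola begins 13.9 kb from this summit on the other side. An intron summit of psq had a relative signal of 0.709 ± 0.161.

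Genes that act with the members gave counts in the same range. Of 16 architectural partners (cohesin and condensin subunits, chromatin kinases and insulator cofactors), 6 had an IDR summit at a start (37.5%, interval 15.2 to 64.6), against 17.9% of all protein-coding genes. These were Cap-H2, pzg, JIL-1, shep, fs(1)h and e(y)2. The strongest start-site summit of each had a relative signal from 0.676 ± 0.498 for fs(1)h to 1.55 ± 0.0370 for shep. A further start-site summit of shep had 0.654 ± 0.203. The start-site summits of Cap-H2, pzg, fs(1)h and e(y)2 were nearer to the start of another gene (MED7, CG12974, mys and CG11695), and those of JIL-1 and shep were nearest to their own. The cohesin genes SMC1 and SMC3 had pooled peaks of 157 and 54.5, and vtd and the loader gene Nipped-B had none. A symbol SA on that list matched more than 1 gene and was not used. Of 8 genes listed as other zinc finger genes with a ZAD domain, an insect-specific dimerisation domain, 3 were bound. These were trem at 0.933 ± 0.0124 (nearer to idc), Zif at 0.620 ± 0.400 and Sry-delta at 1.29 ± 0.224. The domain was not checked gene by gene. Sry-alpha and Sry-beta on this list of 8 have the same annotated span and the same pooled peak of 177, and so are not separate cases. Of 6 other BTB genes, fru and lolal were bound. The start-site summit of fru was near the end of the IDR list, with a pooled signal of 182 that ranked 3199 of 3290. Its relative signal was 0.502 ± 0.334.

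The gene lolal, which encodes a short BTB protein that binds GAGA factor, carried a peak stronger than that of any of the 35. Its summit lay 46 bp upstream of lolal and 19 bp from the divergent gene CG10914 (chr2R:18157542-18158997). The signal was 3108 in replicate 1 and 13218 in replicate 2, relative signals of 48.1 and 59.3 (mean 53.7 ± 7.91, SD, n = 2), and the pooled signal of 16196 ranked 57. That peak and the psq peak each exceeded the strongest start-site peak of a member, Chro at 6.16 ± 0.812, in both libraries.

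Words known for some members were then sought within 100 bp of the 27 member summits, on both strands, and set beside the share of all 3290 IDR summits that hold them. The Dref and BEAF-32 word TATCGATA was at 0 of 27 member summits, against 5.20% of all, and the M1BP word GGTCACAC at 0 of 27, against 2.89%. The GAGA factor word GAGAG was at 4 of 27 (14.8%; D19B, Trl, pita and psq), against 22.3%. Single summits held TGCATAC, part of the su(Hw) site (pita, against 3.13%), AGNNGGCGC, part of the CTCF site (row, against 2.61%), and the E box CAGCTG (M1BP, against 11.6%). The word AAAGCT, picked from the strongest IDR peaks after they had been seen, was at 2 of 27 (Chro and ken; 7.41%), against 18.8% of all and 41.9% of the 329 strongest, which include the peaks of Chro, the Trl intron and the psq upstream region. AGCTTTTG, which overlaps AAAGCT by its reverse complement, was at 1 of 27 (ken), against 3.80%. CAACACTG, also picked from the list, was at 1 of 27 (Phs, with both matches shown above), against 4.38% of all and 1.52% of the 329 strongest. The psq upstream summit, not among the 27, had TATCGATA, AGNNGGCGC and AAAGCT within 100 bp.

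**Figure D5:**
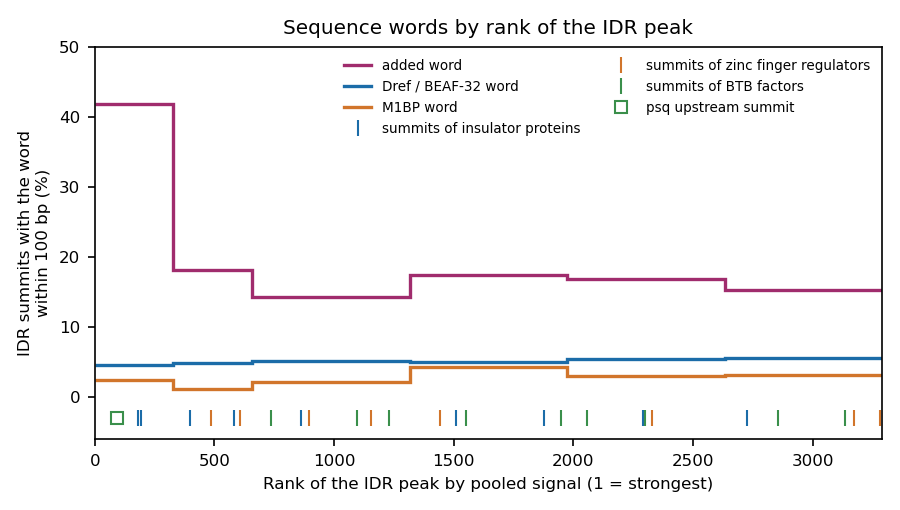
Share of IDR summits with AAAGCT (the added word), TATCGATA (the Dref and BEAF-32 word) or GGTCACAC (the M1BP word) within 100 bp, by rank of the peak, with ticks for the member summits by class and a square for psq. The added word is at 41.9% of the 329 strongest peaks, against 16.2% of the others. It was picked from the strongest peaks, so a higher share there was built into the choice. Only 2 of the 27 member summits, Chro and the Trl intron, lie among those 329.

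Promoters of the members, from 250 bases before to 50 after each start site, were searched for the same words. TATCGATA was in a promoter of 9 of 35 members (25.7%; CTCF, BEAF-32, Cp190, pita, Ibf1, Ibf2, mod(mdg4), crol and ken), against 10.2% of all protein-coding genes. Of those 9 genes Cp190 and pita were bound, where 17.9% of all protein-coding genes were. Neither had the word within 100 bp of a summit, but Cp190 had it within 200 bp. GGTCACAC was in 6 of 35 (17.1%), against 8.71%, and none of these genes was bound. The bound share of all protein-coding genes with either word was not computed, so these counts do not relate the words to binding. GAGAG was in 13 of 35 (37.1%), against 36.3%, and AAAGCT in 13 of 35 (37.1%), against 26.8%. The GC content within 100 bp of the 15 start-site summits had a median of 40.3%, and around the 12 intron summits 38.6%, against 36.3% over all IDR summits (quartiles 32.3 and 41.8). The Trl intron, at 23.9%, and the main Cp190 summit, at 25.4%, were the richest in A and T of the member summits, as their printed sequences show.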

How the data were processed

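The files are peak lists in narrowPeak format on dm6. Per the deposited notes they derive from alignments and a control. Which caller and version, which IDR threshold and what depth lie behind them was not given in the sources used here. The authors deposited, for every peak, a signal in the unit of their caller and a summit offset (bp from the start of the peak, a unit of its own). The scaling of signal for depth is unknown; replicate 2 had a median of 3.74 times the signal of replicate 1. The IDR list uses both libraries and the relaxed lists hold up to 30000 peaks.

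Here, start sites and gene parts came from Ensembl release 115 (protein-coding genes, all transcripts, 6 arms), and sequence from the RefSeq genome of dm6. A library's value is its strongest peak covering the IDR summit; both libraries had one at 3198 IDR peaks. Divergent genes start within 1000 bp on opposite strands. Shares have exact (Clopper-Pearson) 95% intervals. With 1 group and no second condition, no test between samples exists, and none was made across genes. Named genes are all members, CG18011, genes nearer to a member summit, and pathway genes bound at a start. Pathway genes singled out after their values were seen were SMC1, SMC3, vtd, Nipped-B, Sry-alpha and Sry-beta. The members, classes and lists were chosen with earlier results of these data known. Alternatives were other windows, peak lists, start sites and scalings. Gene assignment and word search were checked on simulated peaks. Scripts used Python 3.11.15, numpy 2.4.6, pandas 2.3.3, scipy 1.17.1 and matplotlib 3.10.9. The dm3 lists were not used.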

Additional observations from a re-analysis of the deposited data

How the results depend on the processing

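The count of 12 bound members was 9 with a 250 bp window (M1BP, Kr-h1 and lola lost) and 13 with 1000 bp (psq gained), and 9 with the 1645 strongest IDR peaks (pita, Kr-h1 and nom lost). It was 13 by overlap of intervals, 8 with canonical transcripts only (Cp190, Trl, Kr-h1 and lola lost) and 9 by nearest start site. Leaving out a replicate gave 10 to 12, with pita, Kr-h1 and nom lost and psq gained without replicate 2. BTB factors, 1 at first, were 0 with 250 bp or canonical transcripts, 2 with 1000 bp or interval overlap, and 1 to 2 without a replicate. Insulator genes were 2 with canonical transcripts, against 4, and zinc finger genes 4 by nearest start site, against 7. The share of all protein-coding genes bound was 9.97% with those 1645 peaks, against 17.9%. For all protein-coding genes that share was 14.6% with 250 bp, 20.5% with 1000 bp and 19.2% by interval overlap. It was 15.8% with canonical transcripts, 13.2% by nearest start site, 18.0% without replicate 1 and 17.1% without replicate 2. Members with an IDR summit inside were 20 when the gene was extended by 1000 bp and 7 with those 1645 peaks, against 13. They were 9 without replicate 2 and 13 without replicate 1. The BTB genes among them, 7 at first, were 4 with those 1645 peaks (ttk, chinmo and psq lost). They were 6 without replicate 2 (chinmo lost) and 7 without replicate 1. The share of all protein-coding genes with a summit inside was not computed for these settings. Member summits with any of the 6 known words were 4 within 50 bp and 15 within 200 bp, against 7 within 100 bp. The share of all IDR summits with any of the 6 was not computed. With 2 libraries, leaving out either moves a mean by less than 1 SD by construction, so that the relative signals of single genes without a replicate show nothing of their stability. Under pooled scaling 11 of 12 stayed within 1 SD, and Phs was 1.08, against 1.03. No paired analysis was possible because the libraries form 1 group. The AAAGCT, AGCTTTTG and CAACACTG words, the promoter windows, the GC content, the 20 kb background and the nearest summit at any distance were chosen after seeing the data. The unknown depth limits every single peak, and the small number of genes limits every share.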
